A study of Mus musculus with 12 samples.

Results

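Transforming growth factor beta (TGF-beta) signalling was followed through 10 genes in CD11b-positive cells of the mouse cerebral cortex. The genes were chosen by name for their place in the pathway, with earlier results of these data known. All 10 of them, among 55487 genes in the count table, passed the filter on low counts that left 15425 genes for testing. They comprise the ligand gene Tgfb1, the latent TGF-beta binding gene Nrros, the receptor genes Tgfbr1 and Tgfbr2, the signal transducers Smad2, Smad3 and Smad4, and the inhibitors Smad7, Ski and Skil. RNA was sequenced from 12 mice, with 3 libraries in each of 4 groups. The WT veh and App veh groups were male C57BL/6J (WT) and AppNL-G-F mice that received PBS (veh) intravenously. The WT BRICHOS and App BRICHOS groups were male mice of the same strains that received recombinant human (rh) Bri2 BRICHOS R221E, a mutant of a chaperone domain that acts against amyloid formation, at 10 mg/kg. All mice were given 24 injections over 12 weeks from 9 months of age and were then left without treatment for 4 weeks. AppNL-G-F mice carry the Swedish, Beyreuther/Iberian and Arctic mutations in a humanised amyloid-beta sequence of the endogenous App gene, in every cell type, and WT mice carry none of them. The cells were taken with magnetic beads against CD11b, so that any CD11b-positive cell of the dissociated cortex can be in a library, and each library came from another mouse.

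TGF-beta is secreted in a latent form, held by its own propeptide and by an anchoring protein. In microglia that protein is the product of Nrros, through which the cytokine is presented to the cell itself. Active TGF-beta binds the type II receptor (Tgfbr2), which phosphorylates the type I receptor (Tgfbr1), and this in turn phosphorylates Smad2 and Smad3, which enter the nucleus together with Smad4. Smad7, Ski and Skil (also called SnoN) dampen the response, the first at the receptor and the others on the Smad complex at the DNA. Microglia depend on TGF-beta for their homeostatic identity, and genes such as P2ry12, Tmem119 and Sall1 are lost when the signal is withdrawn.

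The promoter sequences of the 4 genes that differed between strains in both treatment groups are shown first, since Smad complexes act on DNA through the short element CAGAC. They are the 250 bases before the RefSeq start on GRCm38.p6, written 5′ to 3′ on the strand of the gene, with CAGAC on either strand in capitals. The window lies at chr4:47352972-47353221 (plus strand) for Tgfbr1, at chr9:116175364-116175613 (minus strand) for Tgfbr2, at chr9:63757995-63758244 (minus strand) for Smad3 and at chr16:32165595-32165844 (minus strand) for Nrros.
Tgfbr1: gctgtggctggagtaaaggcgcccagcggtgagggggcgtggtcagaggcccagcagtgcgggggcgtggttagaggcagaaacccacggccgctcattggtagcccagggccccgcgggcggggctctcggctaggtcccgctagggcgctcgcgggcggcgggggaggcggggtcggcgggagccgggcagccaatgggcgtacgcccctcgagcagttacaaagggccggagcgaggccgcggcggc
Tgfbr2: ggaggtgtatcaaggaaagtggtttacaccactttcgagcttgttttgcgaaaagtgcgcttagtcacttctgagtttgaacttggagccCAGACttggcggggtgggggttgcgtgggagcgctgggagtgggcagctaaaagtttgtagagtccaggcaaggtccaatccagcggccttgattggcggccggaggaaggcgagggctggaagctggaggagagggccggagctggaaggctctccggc
Smad3: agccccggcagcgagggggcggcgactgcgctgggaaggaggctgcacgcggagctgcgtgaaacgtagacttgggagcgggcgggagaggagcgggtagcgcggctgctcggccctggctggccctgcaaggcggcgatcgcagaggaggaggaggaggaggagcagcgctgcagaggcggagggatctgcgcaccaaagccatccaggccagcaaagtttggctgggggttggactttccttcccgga
Nrros: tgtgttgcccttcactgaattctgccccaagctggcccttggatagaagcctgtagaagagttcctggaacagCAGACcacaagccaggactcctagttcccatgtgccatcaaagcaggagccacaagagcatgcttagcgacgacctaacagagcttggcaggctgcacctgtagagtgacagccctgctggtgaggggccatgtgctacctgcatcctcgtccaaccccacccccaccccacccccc
CAGAC stood once in the Tgfbr2 window, 160 bases before the start, and once in the Nrros window, 177 bases before it. It was not in the Tgfbr1 or Smad3 window, while a second RefSeq start of Tgfbr1 had it 203 bases upstream. Of 32851 mouse promoters of the same length, 42.2% held CAGAC, so the element is common. The other motifs searched on both strands were GTCTAGAC (0.167% of all promoters), TGACTCA (4.46%) and GAGGAAGT (2.44%). None of them was in the windows of the 6 signalling genes whose windows were kept, which include Tgfb1 and Ski. The Tgfbr1 window held 74.8% G and C, and the Tgfbr2 window 58.4%, against a median of 52.4% over all promoters.

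The libraries held between 12433402 and 17889654 counts on genes, and 3 counts, taken as the detection floor, correspond to 0.169 to 0.227 CPM, the count of a gene scaled to a fixed library total. The lowest count of any of the 10 genes in any library was 714. The sum of 9 microglia markers was between 24820 and 30090 CPM in every library, and all 9 were detected. Other cells were present and differed between strains. The sum of 8 astrocyte markers was 427.2 to 603.2 CPM in WT veh and 1405 to 4509 CPM in App veh mice, with 8 of 8 markers higher at an adjusted p-value under 0.05. The sum of 6 oligodendrocyte markers was 9409 to 16580 CPM in WT veh and 2975 to 5367 CPM in App veh mice, with 2 of 6 lower. The sum of 6 border macrophage markers was 389.5 to 460.1 CPM in WT veh and 167.1 to 224.1 CPM in App veh mice, with 6 of 6 lower. Of 5 neutrophil markers, 5 were lower, with a sum of 32.71 to 364.3 CPM in WT veh and 13.34 to 33.54 CPM in App veh mice. None of these markers was at or under the floor in all libraries. In BRICHOS-treated mice the astrocyte sum was 427.6 to 781.1 CPM in WT and 653.2 to 1887 CPM in AppNL-G-F mice, with 1 of 8 markers higher.

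Relative to its exon length, Tgfbr1 was the most abundant of the set in all 12 libraries. The level of Tgfbr1 was 207 ± 29.3 CPM per kb (SD over all 12 libraries), above 98.9% of tested genes, and every library had more Tgfbr1 than Tgfbr2 (96.5 ± 23.9 CPM per kb). Ski was close to Tgfbr2 with 92.7 ± 4.27 and lay under it in 6 of 12 libraries, with group means above those of Tgfbr2 in both WT groups (94.3 and 73.1 CPM per kb in WT BRICHOS). They were followed by Tgfb1 with 72.3 ± 10.8, Skil with 52.0 ± 10.9, Nrros with 40.0 ± 5.41 and Smad7 with 35.5 ± 4.58 CPM per kb. The ranges over libraries of each neighbouring pair from Tgfbr2 to Smad7 overlapped. The signal transducers were the least abundant. Smad3 was at 24.0 ± 2.7, Smad4 at 15.0 ± 0.805 and Smad2 at 6.35 ± 0.350 CPM per kb, and the ranges of these 3 genes did not overlap with each other or with Smad7. Smad3 mRNA was thus several-fold more abundant per length than that of Smad2, with which it shares its position in the pathway.

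**Figure D1:**
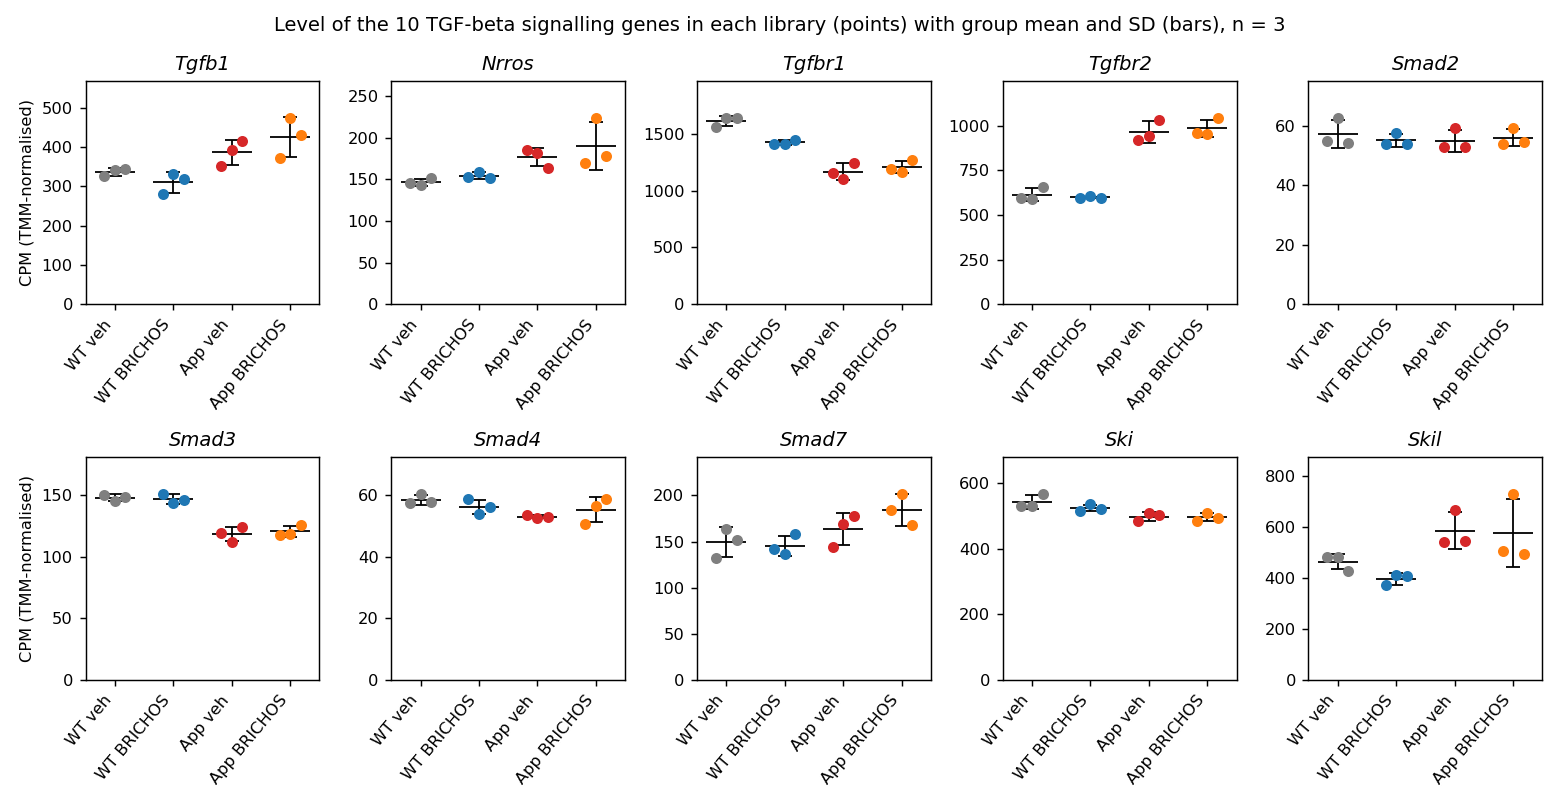
Level of each of the 10 genes in CPM (y axis, from 0) in the 12 libraries, with 1 point per mouse and bars for the mean and SD of each group (n = 3). Tgfbr1 and Smad3 were lower, and Tgfbr2 higher, in all 6 AppNL-G-F libraries than in all 6 WT libraries, whereas Smad2 was at 52.64 to 62.45 CPM throughout.

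The first comparison was between strains in veh-treated mice. In App veh against WT veh mice, Tgfbr2 and Nrros were higher and Tgfbr1 and Smad3 were lower at an adjusted p-value under 0.05, so that 4 of the 10 genes (2 higher, 2 lower) passed. Of all tested genes, 37% passed in this comparison, 20.1% higher and 16.9% lower, and the share among the 10 genes was therefore close to the background. The median log2 fold change was 0.038 over the 10 genes and -0.022 over all tested genes. The libraries of the 2 groups did not overlap for 8 of the 10 genes (4 higher, 4 lower), against 50.9% of all tested genes. In BRICHOS-treated mice of the 2 strains, which are different animals, the same 4 genes passed with the same signs, and Tgfb1, Smad7 and Skil were higher as well. This made 7 of 10 genes (5 higher, 2 lower), where 42.5% of all tested genes passed, 20.8% higher and 21.8% lower. The median was 0.16 over the 10 genes and -0.042 over all genes, and the groups did not overlap for 8 genes (5 higher, 3 lower), against 51.7% of all genes. In these bulk samples, fewer cells of a type and less RNA per cell cannot be told apart.

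Tgfbr2 (ENSMUSG00000032440, chromosome 9, 116084293 to 116175360 on GRCm38), the receptor that binds active TGF-beta first, had the largest difference of the 10 genes. Its level was 596.7, 588.9 and 655.7 CPM in WT veh 1 to 3 and 917.3, 941.0 and 1032 CPM in App veh 1 to 3. With BRICHOS it was 595.8, 603.4 and 596.4 CPM in WT and 956.8, 954.5 and 1041 CPM in AppNL-G-F mice. All 6 AppNL-G-F libraries lay above all 6 WT libraries, and the 3 WT BRICHOS libraries had a coefficient of variation of 0.707%. The level was 1.57-fold higher in App veh than in WT veh mice (log2 fold change 0.65, SE 0.0635, edgeR adjusted p = 1.12e-05) and 1.64-fold higher under BRICHOS (log2 fold change 0.72, SE 0.0635, adjusted p = 4.67e-06).

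Tgfbr1 (ENSMUSG00000007613, chromosome 4, 47353222 to 47414931), the kinase that passes the signal on to the Smads, went in the opposite direction. It was at 1558, 1633 and 1635 CPM in WT veh and at 1158, 1100 and 1243 CPM in App veh mice. With BRICHOS it was at 1413, 1410 and 1447 CPM in WT and at 1189, 1159 and 1265 CPM in AppNL-G-F mice. Every AppNL-G-F library was thus below every WT library, and the WT BRICHOS libraries lay between WT veh and both AppNL-G-F groups without overlapping any of them. The log2 fold change between strains was -0.46 (SE 0.0596, adjusted p = 0.000101) in veh-treated and -0.24 (SE 0.0595, adjusted p = 0.00691) in BRICHOS-treated mice by edgeR. Across 23 alternative settings, both receptor genes kept their sign and passed in both comparisons, with a log2 fold change in veh-treated mice of -0.65 to -0.36 for Tgfbr1 and 0.46 to 0.76 for Tgfbr2.

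Since both receptors are measured in the same library, their ratio does not depend on how the libraries are scaled. Tgfbr2 per Tgfbr1, in CPM per kb, was 0.306, 0.288 and 0.320 in WT veh 1 to 3 and 0.632, 0.683 and 0.662 in App veh 1 to 3. It was 0.336, 0.341 and 0.329 in WT BRICHOS and 0.642, 0.657 and 0.657 in App BRICHOS mice. The ratio was thus about doubled in AppNL-G-F mice, with means of 0.659 ± 0.0254 in App veh and 0.305 ± 0.0162 in WT veh mice (SD, n = 3), and there was more Tgfbr1 than Tgfbr2 mRNA per length in all 12 libraries. With the mean log2 level of the 8 astrocyte markers as a covariate, the log2 fold change in veh-treated mice was -0.40 (adjusted p = 0.0427) for Tgfbr1 and 0.76 (adjusted p = 0.00117) for Tgfbr2. With App veh 1 and 2 left out, which had the highest astrocyte marker levels, it was -0.36 (adjusted p = 0.0178) and 0.76 (adjusted p = 0.000332). Only App veh 3 is then left in its group, and here and in the other values without App veh 1 and 2 this lone library is assumed to vary like those of the other groups.

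**Figure D2:**
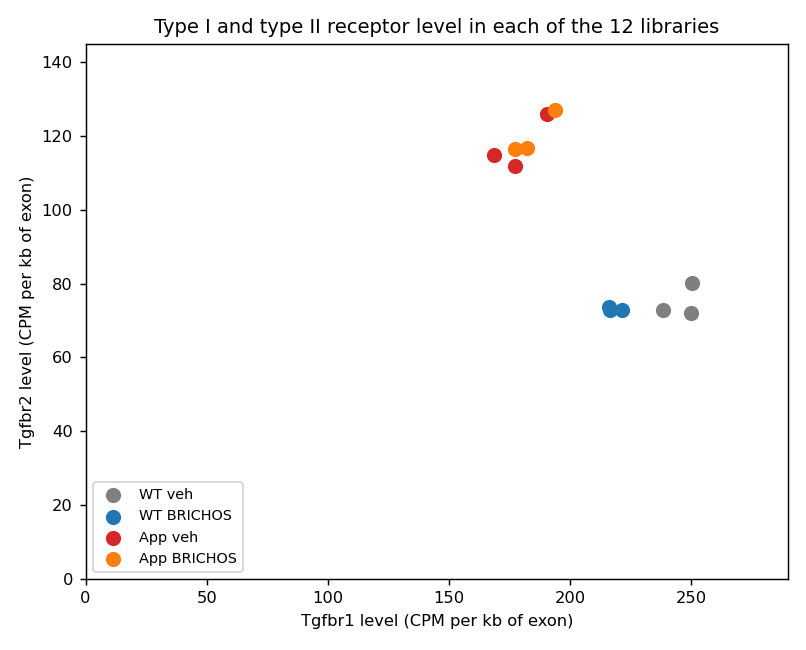
Level of Tgfbr1 (x axis) against Tgfbr2 (y axis), both in CPM per kb of exon, with 1 point per library coloured by group. The 6 AppNL-G-F libraries lie at higher Tgfbr2 and lower Tgfbr1 than the 6 WT libraries, and the WT BRICHOS libraries lie at lower Tgfbr1 than the WT veh libraries.

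Of the ligand and its anchor, Nrros rose in AppNL-G-F mice under both treatments and Tgfb1 under BRICHOS. With library size alone in place of TMM factors, 0 of these 3 differences passed. Nrros (ENSMUSG00000052384, chromosome 16, 32142785 to 32165594) was at 145.2, 142.9 and 151.1 CPM in WT veh and 184.9, 181.1 and 164.1 CPM in App veh mice. It was at 153.4, 159.1 and 151.5 CPM in WT BRICHOS and 169.6, 223.4 and 177.6 CPM in App BRICHOS mice. All AppNL-G-F libraries lay above all WT libraries, but the gap was narrow, and App BRICHOS 2 stood above the rest. The log2 fold change was 0.27 (SE 0.0894, edgeR adjusted p = 0.0331) in veh-treated and 0.30 (SE 0.0892, adjusted p = 0.0186) in BRICHOS-treated mice. The first call was lost when WT veh 1, 2 or 3 or App veh 1 or 2 was left out (adjusted p = 0.0835, 0.0961, 0.0545, 0.137 and 0.0930), and the second when WT BRICHOS 3 was left out (adjusted p = 0.0538). Without App BRICHOS 2 the second value was 0.17 (adjusted p = 0.0475). With the astrocyte score as a covariate the first value was 0.40 (adjusted p = 0.149) and with the oligodendrocyte score 0.18 (adjusted p = 0.210).

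Tgfb1 (ENSMUSG00000002603, chromosome 7, 25687002 to 25705077) encodes the TGF-beta isoform that microglia make most of. It was at 325.9, 342.3 and 342.9 CPM in WT veh and 351.1, 392.4 and 414.9 CPM in App veh mice. It was at 280.0, 331.6 and 318.0 CPM in WT BRICHOS and 371.5, 473.1 and 430.8 CPM in App BRICHOS mice. The strains did not overlap under either treatment, and the distance was larger under BRICHOS. In veh-treated mice the log2 fold change of 0.20 (SE 0.0933, 95% interval -0.00828 to 0.401) did not pass (edgeR adjusted p = 0.121). In BRICHOS-treated mice it was 0.46 (SE 0.0934) and passed (adjusted p = 0.00227), also without App BRICHOS 2 (0.38, adjusted p = 0.0101). The difference of these values, tested as the interaction of strain and treatment, was 0.26 (SE 0.132, adjusted p = 0.383), so the strain differences in Tgfb1 were not shown to differ between treatments. The ratio of Nrros to Tgfb1 mRNA per length was 0.525 ± 0.0182 in WT veh, 0.557 ± 0.0791 in App veh, 0.605 ± 0.0487 in WT BRICHOS and 0.540 ± 0.0375 in App BRICHOS mice, and the libraries of the 2 strains overlapped.

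Among the signal transducers, Smad3 was lower in AppNL-G-F mice while Smad2 and Smad4 did not pass in either comparison. Smad3 (ENSMUSG00000032402, chromosome 9, 63646767 to 63757994) was at 149.8, 144.8 and 148.5 CPM in WT veh and 119.3, 112.0 and 123.7 CPM in App veh mice. It was at 150.7, 143.1 and 146.0 CPM in WT BRICHOS and 117.8, 118.2 and 125.3 CPM in App BRICHOS mice. All AppNL-G-F libraries were below all WT libraries, and the treatment groups of each strain overlapped. The log2 fold change was -0.32 (SE 0.0483, edgeR adjusted p = 0.000336) in veh-treated and -0.28 (SE 0.0483, adjusted p = 0.000675) in BRICHOS-treated mice. With the astrocyte score as a covariate the value in veh-treated mice was -0.24 (adjusted p = 0.110), and with App veh 3 as the lone library of its group it was -0.25 (adjusted p = 0.0471). In the BRICHOS-treated mice, whose astrocyte marker levels were closer, the covariate gave -0.26 (adjusted p = 0.00293).

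Smad2 (ENSMUSG00000024563, chromosome 18, 76241580 to 76310963), which is phosphorylated by the same receptor as Smad3, was at 54.71, 62.45 and 54.25 CPM in WT veh and 52.64, 59.07 and 52.91 CPM in App veh mice. Its group means were 57.1 ± 4.61, 55.1 ± 2.20, 54.9 ± 3.64 and 55.9 ± 2.80 CPM (SD, n = 3) in WT veh, WT BRICHOS, App veh and App BRICHOS mice. The strains overlapped under both treatments. The log2 fold change between strains was -0.06 (95% interval -0.218 to 0.1, adjusted p = 0.552) in veh-treated and 0.02 (-0.137 to 0.180, adjusted p = 0.833) in BRICHOS-treated mice by edgeR. The ratio of Smad3 to Smad2 per length was 4.12 ± 0.384 in WT veh and 3.43 ± 0.376 in App veh mice, with overlap between the groups, since WT veh 2 (3.67) lay under App veh 3 (3.70). Smad4 (ENSMUSG00000024515, chromosome 18, 73639009 to 73703780), the partner of both, was at 57.45, 60.37 and 57.68 CPM in WT veh and 53.42, 52.57 and 52.91 CPM in App veh mice. These libraries did not overlap, but the log2 fold change of -0.14 (SE 0.0610) did not pass by edgeR (adjusted p = 0.0862), and under BRICHOS the value was -0.02 (adjusted p = 0.792). An annotated pseudogene on the other strand, AC132418.2, lies within Smad4 without overlapping its exons.

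The inhibitors did not move as one. Skil (ENSMUSG00000027660, chromosome 3, 31095058 to 31122577), a corepressor that binds Smad complexes and whose protein is degraded when TGF-beta arrives, was at 479.9, 482.6 and 428.6 CPM in WT veh and 540.8, 666.7 and 544.2 CPM in App veh mice. It was at 370.1, 410.3 and 405.9 CPM in WT BRICHOS and 503.9, 728.1 and 492.2 CPM in App BRICHOS mice. The strains did not overlap under either treatment, and the second AppNL-G-F library of each treatment stood above the rest of its group. WT veh 2 and WT BRICHOS 2 were also the highest of their groups, by a smaller margin. The log2 fold change was 0.33 (SE 0.138, edgeR adjusted p = 0.0796) in veh-treated and 0.54 (SE 0.138, adjusted p = 0.00843) in BRICHOS-treated mice. Without App BRICHOS 2 these values were 0.33 (adjusted p = 0.00987) and 0.34 (adjusted p = 0.0169), so that leaving out this library made the first one pass and lowered the second one. The first also passed when the veh-treated groups were fitted alone (edgeR adjusted p = 0.0267, DESeq2 adjusted p = 0.00292).

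Ski (ENSMUSG00000029050, chromosome 4, 155154075 to 155222592), the paralog of Skil with the same role, was at 531.6, 529.7 and 567.5 CPM in WT veh and 483.8, 508.0 and 503.3 CPM in App veh mice. It was at 516.2, 535.5 and 522.2 CPM in WT BRICHOS and 485.0, 508.7 and 495.4 CPM in App BRICHOS mice. All AppNL-G-F libraries were below all WT libraries by a small margin, and neither comparison passed (log2 fold change -0.12, SE 0.0467, edgeR adjusted p = 0.0573, and -0.08, SE 0.0467, adjusted p = 0.192). The ratio of Skil to Ski per length was 0.491 ± 0.0503 in WT veh, 0.432 ± 0.0184 in WT BRICHOS, 0.672 ± 0.0713 in App veh and 0.662 ± 0.138 in App BRICHOS mice. The lowest ratio in an AppNL-G-F library was 0.570 and the highest in a WT library 0.523, so the ratios did not overlap between strains.

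Smad7 (ENSMUSG00000025880, chromosome 18, 75367529 to 75395935), the inhibitory Smad that TGF-beta itself induces, varied between mice of one group. It was at 131.7, 163.9 and 152.0 CPM in WT veh and 144.6, 169.3 and 177.5 CPM in App veh mice. It was at 141.7, 137.0 and 157.7 CPM in WT BRICHOS and 183.7, 201.5 and 167.5 CPM in App BRICHOS mice. The strains overlapped in veh-treated but not in BRICHOS-treated mice. The log2 fold change was 0.13 (SE 0.102, edgeR adjusted p = 0.326) and 0.34 (SE 0.101, adjusted p = 0.0183), respectively, and the second call was lost when WT BRICHOS 1, WT BRICHOS 2 or App BRICHOS 2 was left out (adjusted p = 0.0504, 0.0684 and 0.0656). The ratio of Smad7 to Smad3 per length was 1.08, 1.39 and 1.25 in WT veh, 1.15, 1.17 and 1.32 in WT BRICHOS, 1.49, 1.85 and 1.76 in App veh and 1.91, 2.09 and 1.64 in App BRICHOS mice. Every AppNL-G-F library thus had more Smad7 per Smad3 mRNA than any WT library.

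**Figure D3:**
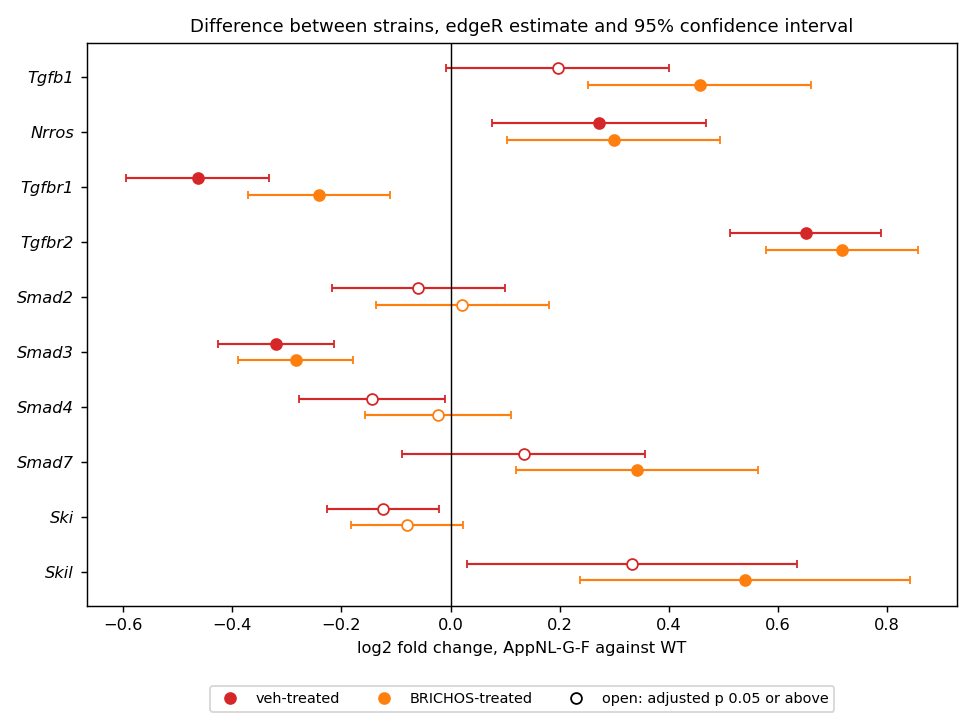
Log2 fold change of the 10 genes between AppNL-G-F and WT mice (x axis) with its 95% confidence interval, in veh-treated (red) and BRICHOS-treated (orange) mice, where filled points passed an adjusted p-value of 0.05. Tgfbr2 lies farthest to the right under both treatments (0.65 and 0.72), Tgfbr1 (-0.46 and -0.24) and Smad3 (-0.32 and -0.28) lie to the left, and the intervals of Smad2 include 0.

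The directions depend on the scaling of the libraries for some of these genes. With library size alone in place of TMM factors, the median log2 fold change of all tested genes between strains moved to -0.21 in veh-treated and -0.31 in BRICHOS-treated mice. Over all tested genes, 7202 then passed in veh-treated and 8598 in BRICHOS-treated mice, against 5710 and 6560 with TMM factors. Of the 10 genes, 6 passed in each comparison with library size alone, with 1 higher and 5 lower. Tgfbr2 was higher (0.46 and 0.45) and Tgfbr1, Smad2, Smad3, Smad4 and Ski were lower. In veh-treated mice Smad7 turned to -0.06, and in BRICHOS-treated mice Smad2 turned to -0.25, while Tgfb1, Nrros, Smad7 and Skil no longer passed under BRICHOS (0.18, 0.02, 0.07 and 0.26). Nrros did not pass in veh-treated mice either with this scaling (0.08, adjusted p = 0.424).

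The second question was what rh Bri2 BRICHOS R221E did to these genes within a strain. In AppNL-G-F mice, 0 of the 10 genes passed by edgeR, 0 had an unadjusted p-value under 0.05, and 0 passed by DESeq2 in either fit. Of all tested genes, 0.00648% passed by edgeR and 10.8% had an unadjusted p-value under 0.05. DESeq2 called 124 genes in all with all libraries and 71 with the compared groups alone. The largest values were 0.17 for Smad7 (95% interval -0.0525 to 0.392), 0.14 for Tgfb1 (-0.0654 to 0.343) and 0.11 for Nrros (-0.0890 to 0.302). The receptor genes were at 0.05 for Tgfbr1 (-0.0849 to 0.176) and 0.03 for Tgfbr2 (-0.108 to 0.169). The App veh and App BRICHOS libraries overlapped for all 10 genes, against 13.5% of all tested genes that did not overlap. The upper bound of the Smad7 interval corresponds to a 1.31-fold increase and that of Skil, the most variable gene of the set, to 1.21-fold, and increases of this size lie within what 3 mice per group leave possible. The astrocyte marker sum was 1405 to 4509 CPM in App veh and 653.2 to 1887 CPM in App BRICHOS mice, with 8 of 8 markers lower at an unadjusted and 0 at an adjusted p-value under 0.05. With the astrocyte score as a covariate 0 of the 10 genes passed.

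In WT mice, 0 of 10 genes passed by edgeR, where 0% of all tested genes passed. At an unadjusted p-value under 0.05, 1 of 10 genes was lower, against 11.4% of all tested genes. This gene was Tgfbr1, whose 3 WT BRICHOS libraries lay below the 3 WT veh libraries (log2 fold change -0.18, 95% interval -0.307 to -0.046, adjusted p = 0.305 by edgeR). With DESeq2's Wald test, 1 of the 10 genes passed when the WT groups were fitted alone, again Tgfbr1 (-0.18, adjusted p = 0.0436), and 0 when all libraries were fitted. Over all genes, these fits called 134 and 85. Over 23 alternatives the Tgfbr1 value was between -0.20 and -0.15, and its adjusted p-value between 0.0436 and 0.691. The libraries of the treatment groups did not overlap for 3 of the 10 genes, against 17.5% of all tested genes. Nrros was higher (log2 fold change 0.08, adjusted p = 0.790), and Tgfbr1 and Skil (-0.23, 95% interval -0.532 to 0.0725, adjusted p = 0.563) were lower with BRICHOS. The median log2 fold change of the 10 genes was -0.052 in WT and 0.038 in AppNL-G-F mice, beside -0.0036 and 0.0078 over all tested genes.

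**Figure D4:**
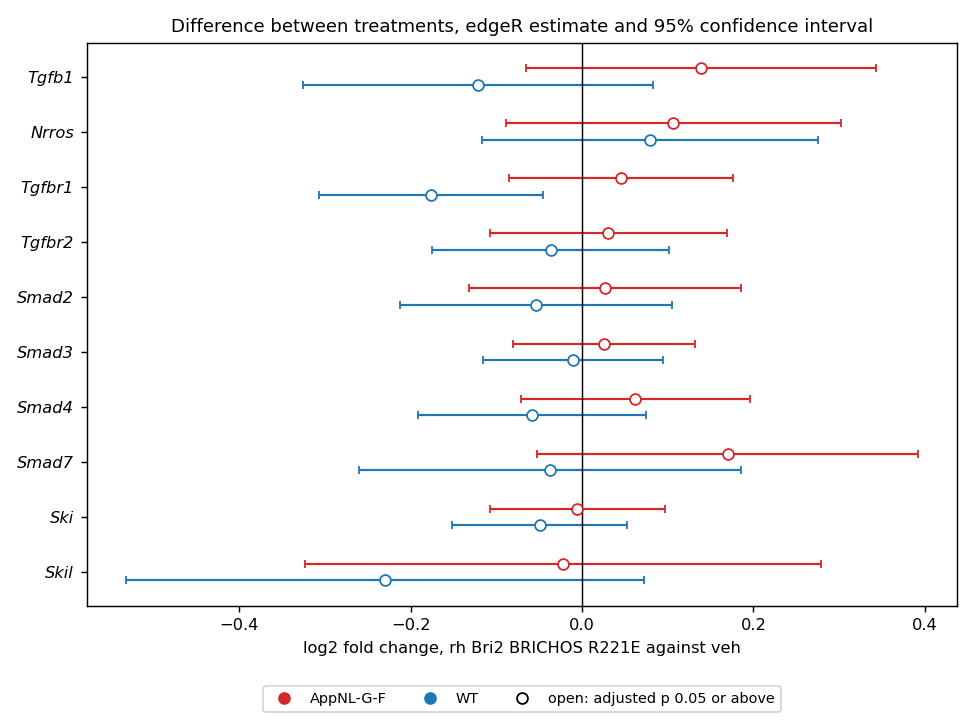
Log2 fold change of the 10 genes between mice given rh Bri2 BRICHOS R221E and mice given veh (x axis) with its 95% confidence interval, in AppNL-G-F (red) and WT (blue) mice. All points are open because 0 genes passed an adjusted p-value of 0.05, and the interval of Tgfbr1 in WT mice, -0.307 to -0.046, is the one that does not include 0.

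Whether BRICHOS acted differently in the 2 strains was tested as the difference of the treatment effects, App minus WT. By edgeR and by DESeq2, 0 of 10 genes passed. Of all tested genes 0.00648% passed by edgeR, and DESeq2 fitted to all libraries called 249 genes. At an unadjusted p-value under 0.05, 1 of 10 genes was counted, against 14.8% of all tested genes. It was Tgfbr1, with a difference of 0.22 (SE 0.0842, unadjusted p = 0.0225, adjusted p = 0.261). The strain difference in Tgfbr1, -0.46 with veh and -0.24 with BRICHOS, was therefore not shown to depend on the treatment. The differences of all 10 genes were positive, from 0.03 for Nrros to 0.26 for Tgfb1, with a median of 0.101 beside 0.015 over all tested genes, but the libraries are shared by all 10 values. Over 21 alternatives, the difference was positive in 17 for Nrros, in 18 for Smad3 and Tgfbr2, in 20 for Smad2 and Ski and in all 21 for the other 5 genes.

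The surrounding pathway was described with 5 lists of genes. They were chosen with earlier results of these data known, so their counts beside the share of all tested genes are descriptive only. In App veh against WT veh mice, 7 of 13 tested genes for ligands, latency and activation passed (3 higher, 4 lower), beside the 37% of all tested genes, and the median log2 fold change was 0.23. Tgfb3, another TGF-beta isoform, fell from 9.56 ± 2.40 to 3.46 ± 0.958 CPM (log2 fold change -1.47, edgeR adjusted p = 0.00275). Lrrc32, which anchors latent TGF-beta on cells other than microglia, fell from 13.4 ± 2.92 to 6.72 ± 2.6 CPM (-0.99, adjusted p = 0.0129). Ltbp4, which stores latent TGF-beta in the matrix, fell from 109.5 ± 8.88 to 59.5 ± 14.6 CPM (-0.88, adjusted p = 0.00375). These genes are at home in vascular and connective cells too, and 4 of 6 endothelial markers were lower, with a sum of 531.0 to 606.6 CPM in WT veh and 402.8 to 536.6 CPM in App veh mice. Mmp14, a membrane protease that can release TGF-beta, rose from 43.9 ± 3.12 to 60.4 ± 1.73 CPM (0.46, adjusted p = 0.00394). The count of this list was 4 without WT veh 1, 4 without App veh 1 and 1 with the astrocyte score as a covariate. Over all tested genes, 4805, 4449 and 1916 passed in these fits, against 5710 with all libraries and no covariate. In BRICHOS-treated mice 9 of 13 genes of the list passed (3 higher, 6 lower), beside 42.5% of all tested genes, and the median was -0.66. In these mice the sum of 6 mural cell markers was 239.0 to 313.2 CPM in WT and 75.3 to 122.4 CPM in AppNL-G-F mice, and that of 6 choroid plexus and ependyma markers 3257 to 6762 and 646.6 to 973.7 CPM, with 6 of 6 lower in each list. Their part in the values of the list was not tested.

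Among co-receptors and Smad regulators, 8 of 19 genes passed (3 higher, 5 lower), a share near the 37% of all tested genes, with a median log2 fold change of -0.16. Bambi, a decoy receptor without a kinase, rose from 6.59 ± 1.38 to 25.2 ± 1.73 CPM (log2 fold change 1.94, edgeR adjusted p = 6.51e-06), and Tgif1, a corepressor of Smads, from 223.2 ± 20.1 to 445.3 ± 45.2 CPM (0.996, adjusted p = 0.000963). Eng (endoglin), a co-receptor, fell from 214.4 ± 20.7 to 116.8 ± 7.89 CPM (-0.88, adjusted p = 5.35e-06). In the same comparison 4 of 6 endothelial and 6 of 6 border macrophage markers were lower and 0 higher. Their part in the fall of Eng was not tested. Tgfbrap1, a receptor-associated protein, fell from 128.7 ± 0.387 to 92.0 ± 3.24 CPM (-0.48, adjusted p = 4.73e-06). In BRICHOS-treated mice these 4 genes had the same sign, with 2.15, 1.12, -0.90 and -0.57 on the log2 scale and adjusted p-values of 2.33e-06, 0.000355, 3.99e-06 and 1.13e-06. In all, 11 of the 19 genes passed in BRICHOS-treated mice (5 higher, 6 lower), beside 42.5% of all tested genes, with a median of -0.10. The count between veh-treated strains was 3 with the astrocyte score as a covariate, and with library size alone it was 16 (2 higher, 14 lower). Over all tested genes, 1916 and 7202 passed in these fits, against 5710 with TMM factors and no covariate.

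Genes known as TGF-beta targets went both ways. Of 15 genes, 10 passed, beside 37% of all tested genes, with 6 higher and 4 lower and a median log2 fold change of 0.20. Bhlhe40, a transcription factor, rose from 23.5 ± 0.819 to 164.5 ± 22.8 CPM (log2 fold change 2.81, edgeR adjusted p = 1.11e-07). Cdkn1a (p21), an inhibitor of the cell cycle, rose from 63.8 ± 6.70 to 299.6 ± 26.7 CPM (2.23, adjusted p = 3.95e-06). Tgm2, a crosslinking enzyme, fell from 229.4 ± 5.14 to 72.2 ± 1.97 CPM (-1.67, adjusted p = 5.27e-06). These 3 genes passed with the same signs in BRICHOS-treated mice, where 10 of the 15 genes passed (5 higher, 5 lower), beside 42.5% of all tested genes, with a median of 0.088. The 3 named genes also respond to signals other than TGF-beta. The count in veh-treated mice was 5 with the astrocyte score as a covariate. Over all tested genes, 1916 passed with this covariate and 5710 without it.

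Of the 12 microglial genes known to depend on TGF-beta, 11 passed, with 2 higher and 9 lower, beside 37% of all tested genes, 20.1% higher and 16.9% lower. The median log2 fold change was -0.50. Tmem119 fell from 1717 ± 138 to 749.4 ± 117 CPM (-1.20, edgeR adjusted p = 1.41e-05), P2ry12, an ADP receptor, from 2742 ± 118 to 1318 ± 34.0 CPM (-1.06, adjusted p = 1.31e-07), Slc2a5, a fructose transporter, from 453.9 ± 33.5 to 227.3 ± 5.42 CPM (-0.998, adjusted p = 1.52e-07) and P2ry13 from 1051 ± 68.2 to 600.4 ± 6.08 CPM (-0.81, adjusted p = 7.09e-07). In BRICHOS-treated mice 9 of 12 passed (2 higher, 7 lower), beside 42.5% of all tested genes, with a median of -0.27. Of these 12 genes, 6 are also among the 9 microglia markers, and of those 9 markers 2 were higher and 6 lower in App veh than in WT veh mice. With the astrocyte score as a covariate, 6 of the 12 passed (1 higher, 5 lower). In that fit 1916 of all tested genes passed, against 5710 without the covariate.

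**Figure D5:**
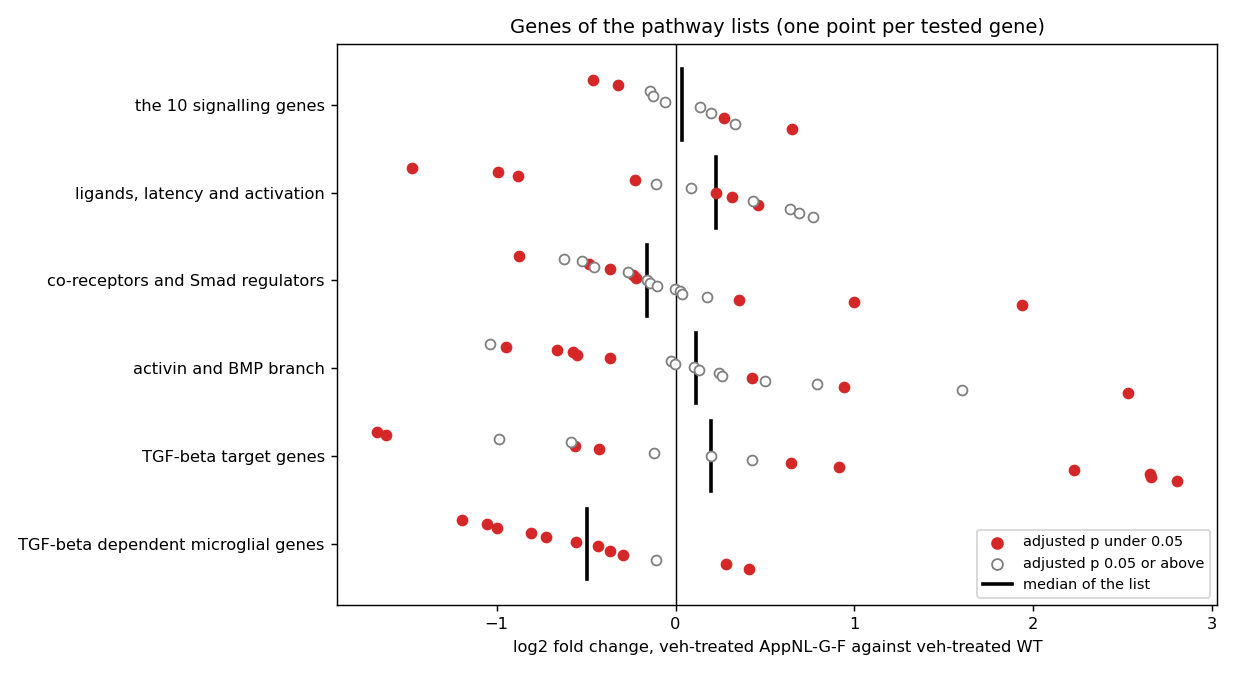
Log2 fold change between App veh and WT veh mice (x axis) of the 10 signalling genes and of the tested genes of 5 pathway lists (rows), with filled red points for an adjusted p-value under 0.05 and a black bar for the median of each row. The median of the TGF-beta dependent microglial genes is -0.50, whereas that of the 10 signalling genes is 0.038 and the target genes spread from -1.67 to 2.81.

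With BRICHOS against veh, 0 genes of these 5 lists passed by edgeR in either strain. At an unadjusted p-value under 0.05 the counts in WT mice were 3 of 13 for ligands, latency and activation, 2 of 19 for co-receptors and regulators, 5 of 18 for the activin and BMP branch, 6 of 15 for target genes and 1 of 12 for TGF-beta dependent genes, beside 11.4% of all tested genes. In AppNL-G-F mice they were 4, 2, 4, 2 and 1 in the same order, beside 10.8% of all tested genes. By DESeq2 fitted to all libraries, Ltbp3, Bmp2 and Bhlhe40 passed in WT and Gdf11 in AppNL-G-F mice, genes that are named here after their values were seen. Fitted to the compared groups alone, DESeq2 counted 2, 0, 2, 4 and 0 genes of the lists in WT and 0 in AppNL-G-F mice. Over all genes, DESeq2 called 85 in WT and 124 in AppNL-G-F mice with all libraries, and 134 and 71 with the compared groups alone. For the difference of the treatment effects between strains, 0 genes of the lists passed by edgeR, with 5, 3, 8, 2 and 3 at an unadjusted p-value under 0.05, beside 14.8% of all tested genes. DESeq2 fitted to all libraries counted 3 (Tgfb2, Ltbp3 and Itgb8), 1 (Tgfbr3), 4 (Bmp2, Bmp6, Bmp7 and Gdf11), 1 (Id1) and 0, each with a negative difference, and these genes too are named after their values were seen. Over all genes this fit called 249. Bhlhe40 was at 23.5 ± 0.819 CPM in WT veh and 35.7 ± 5.58 CPM in WT BRICHOS mice (log2 fold change 0.61, SE 0.151, edgeR adjusted p = 0.239). Markers of other cells also differed by edgeR at an unadjusted p-value under 0.05. In WT mice 5 of 6 border macrophage, 4 of 6 choroid plexus and ependyma and 4 of 5 fibroblast markers were higher with BRICHOS and 0 lower. The difference of the treatment effects was negative for 7 of 8 astrocyte, 5 of 6 choroid plexus and ependyma and 4 of 6 mural cell markers, and positive for 0. The part of these cells in the list counts was not tested.

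Finally, the genes whose level across the 12 libraries was most like that of the 3 signalling genes with the largest strain differences in veh-treated mice were identified, with the root mean square difference of the centred log2 CPM as the measure. Nearest to Tgfbr1 were Cx3cr1, the fractalkine receptor of microglia (0.0278), Inpp5d, an inositol phosphatase (0.0305), and Tspan14, a tetraspanin (0.0358), against a root mean square of 0.194 for Tgfbr1 itself. Nearest to Tgfbr2 were Cd84 (0.0427), Lrp12 (0.0503) and Susd6 (0.0553), against 0.347 for Tgfbr2. Nearest to Skil were Chd4 (0.0782), Bcl10 (0.0813) and Creld2 (0.0814), against 0.275 for Skil, a looser match. Cx3cr1 differed between strains by -0.44 in veh-treated and -0.24 in BRICHOS-treated mice on the log2 scale, beside -0.46 and -0.24 for Tgfbr1. For Cd84 the values were 0.62 and 0.79, beside 0.65 and 0.72 for Tgfbr2. The 12 points of each gene fall into 2 strains, so likeness here is mostly a like difference between strains.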

How the data were processed

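The authors isolated CD11b-positive cells with magnetic beads, trimmed reads with Cutadapt, aligned them to GRCm38 with STAR, counted reads on genes with featureCounts and deposited these counts without normalisation (the submitters' processing notes name STAR 2.6.1d and featureCounts 1.5.1). The strand setting is not given in the sources used here. Libraries were assigned to groups by their titles. Ensembl IDs were matched to symbols in the GENCODE annotation of GRCm38 (55227 of 55487). Genes were filtered with filterByExpr (minimum count 10) and tested with edgeR 4.0.16 (R 4.3.3) by the quasi-likelihood method, with TMM factors and a mean for each of 4 groups, and with Benjamini-Hochberg adjustment over all 15425 tested genes at a threshold of 0.05. Confidence intervals are 95%. Log2 CPM used a prior count of 2. Levels between genes are CPM per kb of merged exons. The tests were checked on simulated counts with 200 changed genes, drawn from those with higher counts, between App veh and WT veh. With edgeR, 39 of 67 genes changed 1.5-fold, 60 of 67 changed 2-fold and 65 of 66 changed 4-fold were found. It also called 11 of 15225 unchanged genes. With DESeq2, 47, 61 and 65 genes were found in the same order, and 32 unchanged genes were called. Alternatives included DESeq2 1.42.0, other scaling, other filters, a replicate block and leaving out libraries. The covariates, the joint omission of App veh 1 and 2 and the list counts by DESeq2 were added after seeing the data. The members and lists were chosen with earlier results of these data known. List genes were named when they were among the 4 with the largest strain difference in veh-treated mice that passed at a mean of at least 1 CPM. One gene taken by that rule is left out. Promoters are from RefSeq (GRCm38.p6), with windows kept for 6 of the 10 genes. Skil had no entry, and any entries on chromosome 18, where Smad2, Smad4 and Smad7 lie, were left out.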

Additional observations from a re-analysis of the deposited data

How the results depend on the processing

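Of 253 values recomputed for the 11 gene-level differences that passed, 234 still passed, 19 did not and 0 changed sign, and of 877 values for the 39 that did not pass, 15 passed. The count of signalling genes in App veh against WT veh mice was 4, where 5710 of 15425 tested genes passed. It was 2 with the astrocyte score as a covariate (Tgfbr1 and Tgfbr2), where 1916 passed. At an unadjusted p-value under 0.05 it was 7 (3 higher, 4 lower), and the share of all tested genes at this threshold is not given here. Between BRICHOS- and veh-treated WT mice the count of signalling genes was 0, but 1 by DESeq2 on the compared groups, which called 134 genes in all. At an unadjusted p-value it was 1, beside 11.4% of all tested genes. For the difference of the treatment effects it was 0, but 1 at an unadjusted p-value, beside 14.8% of all tested genes. With edgeR on the compared groups alone, Nrros did not pass under BRICHOS (adjusted p = 0.0586). The causes were not tested. Smad4 passed between veh-treated strains with edgeR on the compared groups alone (adjusted p = 0.0474) and Ski with at least 10 counts in every library (adjusted p = 0.0404). Leaving out 1 library at a time gave 3 to 5 of the signalling genes between veh-treated strains, where 4449 to 5981 of all tested genes passed. With 3 mice per group, intervals for treatment effects were as wide as -0.532 to 0.0725 (Skil in WT mice).

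The replicate numbers are shared between groups, but each library came from another mouse. Libraries with the same number deviated from their groups with correlations across genes between -0.0148 and 0.227 in the 4 comparisons of groups, not above 0.1 in every pair, so the numbers were not used as pairs. Skil and Smad2 were nevertheless highest in library 2 of every group. With the replicate block, 7 signalling genes passed between veh-treated strains (4 higher, 3 lower), with Tgfb1 (adjusted p = 0.0225), Ski (0.0405) and Skil (0.0258) added, and no other call changed.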

Other observations

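The activin and BMP branch, which shares Smad4 with TGF-beta, had a share of passing genes near that of all genes. In App veh against WT veh mice, 8 of 18 tested genes passed by edgeR (3 higher, 5 lower), beside 37% of all tested genes. The receptor genes Acvr2a and Acvr2b, which bind activins, fell from 23.6 ± 1.97 to 14.9 ± 1.09 CPM (log2 fold change -0.66, adjusted p = 0.000512) and from 13.01 ± 0.740 to 6.75 ± 0.470 CPM (-0.95, adjusted p = 0.000256). Bmpr1b, a BMP receptor, rose from 2.69 ± 0.669 to 15.4 ± 8.37 CPM (2.53, adjusted p = 0.00194), and Gdf11, a ligand, from 2.77 ± 1.11 to 5.27 ± 1.01 CPM (0.94, adjusted p = 0.0432). Under BRICHOS, Acvr2a and Acvr2b were again lower (-0.49 and -0.70), Bmpr1b did not pass (0.66, adjusted p = 0.285) and Gdf11 was lower (-1.01, adjusted p = 0.0306), with a difference of the treatment effects between strains of -1.95 (edgeR adjusted p = 0.157) that passed by DESeq2 fitted to all libraries. In all, 9 of the 18 genes passed under BRICHOS (1 higher, 8 lower), beside 42.5% of all tested genes, with a median of -0.56, after 0.12 in veh-treated mice. Between BRICHOS-treated strains, 6 of 6 choroid plexus and ependyma, 6 of 6 mural cell and 4 of 5 fibroblast markers were lower in AppNL-G-F mice and 0 higher. Their part in these values was not tested. The astrocyte marker sum was 1405 to 4509 CPM in App veh and 427.2 to 603.2 CPM in WT veh mice. With the astrocyte score as a covariate, 4 of the 18 genes passed between veh-treated strains (0 higher, 4 lower). Of all tested genes, 1916 passed with this covariate and 5710 without it.

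App BRICHOS 2 had the highest level of all 12 libraries for Tgfb1 (473.1 CPM), Nrros (223.4 CPM), Smad7 (201.5 CPM) and Skil (728.1 CPM). Its astrocyte marker sum of 653.2 CPM was the lowest of the AppNL-G-F libraries.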
